A study of Rattus norvegicus with 36 samples.

Results

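The genes described here are 8 receptors through which macrophages sense chemoattractants and colony-stimulating factors: Csf1r, Csf2ra, Cx3cr1, Ccr1, Ccr2, Cxcr1, Cxcr4 and Cmklr1. They were chosen by symbol, with earlier results of the overload comparisons in these libraries known. Of the 8 symbols, 7 had a row among the 23487 genes of the table, and all 7 were among the 14606 genes that passed the filter on low counts. Ccr2, the receptor of the monocyte chemoattractant CCL2, is not analysed here.

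RNA was sequenced from primary alveolar macrophages, the resident phagocytes of the airspace, which were taken from male F344 rats, cultured for 5 days and exposed to particles for 4 days. Controls, non-overload and overload cultures were made separately for Printex90 (carbon black) and for G1-1, G3-1 and Bayertitan (titanium dioxides), so that 12 groups of 3 biological replicates gave 36 libraries of 26.1 to 43.2 M counts. All 12 groups share the strain, the sex and the culture. Sources used here give neither the particle amounts behind the words non-overload and overload nor the ages of the rats, nor whether cells of several rats were pooled. Nothing in the labels says that replicates came from separate animals. The p-values therefore measure only the spread between these libraries, and that spread may be technical.

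CSF-1 acts through the receptor tyrosine kinase encoded by Csf1r and keeps macrophages alive. GM-CSF binds the alpha chain encoded by Csf2ra, which signals only together with the beta chain encoded by Csf2rb, and alveolar macrophages need this signal to mature. The chemokine receptors and the chemerin receptor are G protein-coupled: ligand binding activates inhibitory G proteins, steers migration, and is then ended by receptor kinases and arrestins.

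In these cultures the overload libraries of Printex90 and G1-1 had more Cxcr4 and Cxcr1 and less Cx3cr1 and Csf1r than their controls, and Csf2ra was higher in G1-1. G3-1 and Bayertitan overload showed smaller differences in most of these genes, and Cmklr1 was highest after overload with G3-1 and Bayertitan. Because the receptors were chosen with these overload values known, the overload comparisons of the 7 genes are given as levels, fold changes and standard errors (SE), with no test. Tests on the 7 genes are confined to non-overload against control and to the 4 control groups.

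The promoters of 4 receptors are shown: Cxcr4, Cxcr1 and Cx3cr1, whose levels differed most between groups, the first 2 in the opposite direction to Cx3cr1, and Csf2ra, the GM-CSF receptor chain that was highest in G1-1 overload. Each line gives the 250 bases upstream of the gene's start from RefSeq, 5′ to 3′ on the gene's strand, in build GRCr8, which is not the Rnor_6.0 build named for the counts. All 4 genes lie on the minus strand, at chr13:42634289-42634538 (Cxcr4), chr9:83220226-83220475 (Cxcr1), chr14:118118-118367 (Csf2ra) and chr8:128677067-128677316 (Cx3cr1). Capitals mark matches, on either strand, to ACGTG or GCGTG (core letters read by hypoxia-inducible factors and, for GCGTG, by the aryl hydrocarbon receptor), GAGGAA (a purine-rich core read by the myeloid factor PU.1) and TATAAA (the TATA box).
Cxcr4: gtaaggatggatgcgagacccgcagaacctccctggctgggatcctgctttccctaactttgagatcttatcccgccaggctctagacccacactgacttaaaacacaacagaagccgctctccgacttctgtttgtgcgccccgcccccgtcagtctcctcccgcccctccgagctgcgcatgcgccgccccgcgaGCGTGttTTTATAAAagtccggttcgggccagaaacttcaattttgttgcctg
Cxcr1: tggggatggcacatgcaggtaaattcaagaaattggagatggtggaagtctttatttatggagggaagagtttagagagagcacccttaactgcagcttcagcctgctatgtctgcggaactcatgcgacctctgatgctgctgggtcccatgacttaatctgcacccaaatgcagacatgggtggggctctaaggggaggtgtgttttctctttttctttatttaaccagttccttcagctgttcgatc
Csf2ra: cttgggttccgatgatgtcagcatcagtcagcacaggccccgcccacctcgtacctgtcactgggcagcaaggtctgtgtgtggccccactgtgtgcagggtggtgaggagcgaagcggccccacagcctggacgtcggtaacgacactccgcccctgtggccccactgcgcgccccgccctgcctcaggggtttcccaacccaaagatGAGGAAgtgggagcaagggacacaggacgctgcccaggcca
Cx3cr1: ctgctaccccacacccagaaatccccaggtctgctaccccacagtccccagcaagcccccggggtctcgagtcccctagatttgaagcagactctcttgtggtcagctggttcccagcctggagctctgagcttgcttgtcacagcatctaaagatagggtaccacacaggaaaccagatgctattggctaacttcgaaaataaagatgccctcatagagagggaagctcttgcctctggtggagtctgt

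The Cxcr4 window held GCGTG 53 to 49 bases before the start and TATAAA 44 to 39 bases before it, where TATAAA also matched on the opposite strand at 46 to 41 bases, overlapping the first. In the Csf2ra window GAGGAA lay 41 to 36 bases before the start. None of the 4 motifs was in the Cxcr1 or Cx3cr1 window. Over 33469 RefSeq promoter windows of the same length, ACGTG was in 16.6%, GCGTG in 25.9%, GAGGAA in 23.3% and TATAAA in 12.9%. GC content was 57.6% for Cxcr4, 47.2% for Cxcr1, 65.6% for Csf2ra and 54% for Cx3cr1, against a median of 51.2% over all windows. These matches are a description of letters and not of binding.

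The cells expressed alveolar macrophage genes throughout. Of the 14 markers on that list, 12 had a row, and their summed level ranged from 6790 to 10100 CPM (counts scaled to a common library size) over the 36 libraries; Lpl ranged from 2480 to 3730 CPM, Fabp4 from 1000 to 1560 CPM and Mrc1 from 917 to 1230 CPM. Marco, a scavenger receptor often used as a marker, did not pass 1.09 CPM. Of the T and NK cell markers, 11 had a row and 8 were under 1 CPM everywhere, with Cd3d, Cd3e and Cd3g at or below 0.204 CPM. The summed list of 69.4 to 142 CPM came mostly from Cd4, with group means of 76.4 to 124 CPM. Of the 12 neutrophil markers, Retnlg was at 0 in all 36 libraries, 5 were under 1 CPM everywhere, and Mpo and Elane did not pass 0.0884 CPM. The summed neutrophil list of 635 to 1260 CPM came mostly from Mmp9, at 610 to 1220 CPM. Col3a1, a fibroblast collagen, set 8 libraries apart, at 13.6 to 110 CPM, against at most 2.88 CPM in the other 28. Both G3-1 control and G3-1 overload had replicates 1 and 2 among them; the others were Bayertitan non-overload replicate 1, G1-1 overload replicate 2, and replicate 2 of the Printex90 control and non-overload groups. In bulk RNA, fewer cells of a type and less RNA per cell cannot be told apart.

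**Figure D1:**
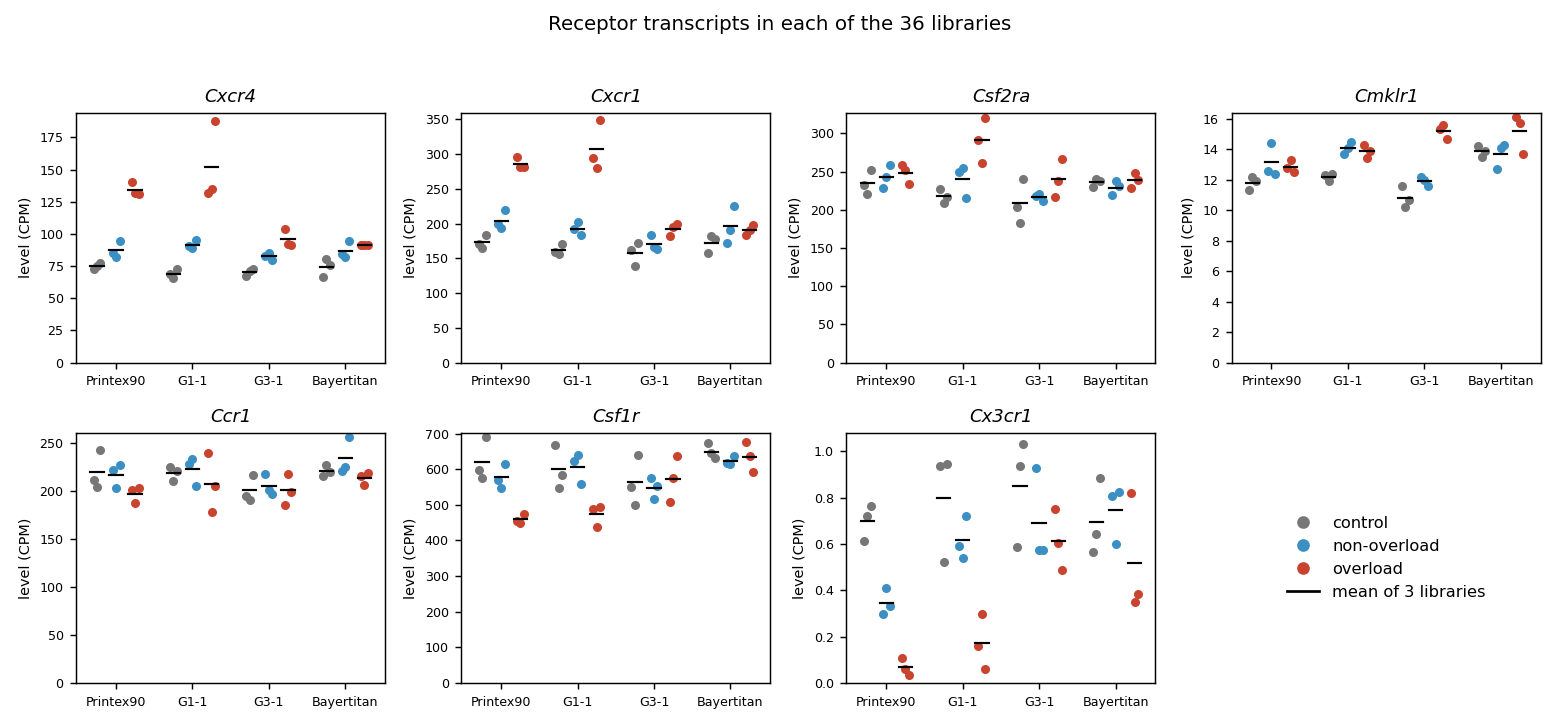
Level of the 7 receptor genes in each of the 36 libraries, in CPM on linear axes that start at 0 and differ between genes, by particle and condition, with points for libraries and a bar for each group mean. Cxcr4 and Cxcr1 are highest in Printex90 and G1-1 overload, where Cx3cr1 and Csf1r are lowest, and Ccr1 stays within 178 to 257 CPM.

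Cxcr4, the receptor of CXCL12 and also a receptor of MIF, stood at 65.8 to 80.2 CPM in the 12 control libraries. In the G1-1 series the libraries had 68.7, 65.8 and 72.8 CPM in control, 90.5, 89.0 and 95.4 CPM in non-overload and 132, 135 and 188 CPM in overload. These 3 groups did not overlap, and the third overload library was the highest of all 36. Printex90 libraries had 73.0, 75.3 and 77.5 CPM in control, 85.0, 82.3 and 94.8 CPM in non-overload, and 140, 132 and 131 CPM in overload. Again the 3 groups were separate. For G3-1 the values were 67.4, 70.9 and 72.8, then 83.2, 85.4 and 80.0, then 104, 91.9 and 91.1 CPM, also without overlap. Bayertitan gave 66.9, 80.2 and 76.1, then 84.1, 81.8 and 94.2, then 91.5, 91.1 and 91.4 CPM, so that its non-overload and overload libraries overlapped. Against control, overload differed by a log2 fold change of 1.14 (SE 0.09) in G1-1, 0.84 (SE 0.09) in Printex90, 0.44 (SE 0.09) in G3-1 and 0.30 (SE 0.09) in Bayertitan. Without the third G1-1 overload library the G1-1 value was 0.96.

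Cxcr1, a receptor of CXCL8-type neutrophil chemokines in humans, had its highest levels in the same pair of groups, Printex90 and G1-1 overload. Its values in Printex90 were 170, 165 and 184 CPM in control, 199, 194 and 219 CPM in non-overload, and 296, 281 and 281 CPM in overload. G1-1 libraries had 159, 157 and 171 CPM, then 193, 203 and 183 CPM, then 294, 280 and 349 CPM. In both series the 3 conditions were separate. With G3-1 the levels were 162, 139 and 172, then 183, 167 and 164, then 182, 195 and 200 CPM, and with Bayertitan 158, 182 and 178, then 172, 191 and 226, then 183, 191 and 198 CPM. For these 2 particles non-overload overlapped with both other conditions, and overload lay above control by a narrow margin. Overload differed from control by 0.92 (SE 0.09) in G1-1, 0.73 (SE 0.09) in Printex90, 0.29 (SE 0.09) in G3-1 and 0.14 (SE 0.09) in Bayertitan, all as log2 fold changes. Cxcr1 is also counted among neutrophil genes. The summed level of the 12 neutrophil markers, which leave Cxcr1 out, was 785 to 858 CPM in G1-1 control and 1040 to 1260 CPM in G1-1 overload, and 884 to 965 CPM in Printex90 control and 839 to 1080 CPM in Printex90 overload. Cxcr2, the close relative of Cxcr1, did not pass 1.44 CPM in any library, and S100a9 did not pass 0.517 CPM. Mmp8, also on the neutrophil list, rose with Cxcr1. Its mean went from 12.9 to 47.2 CPM in Printex90 and from 10.8 to 28.7 CPM in G1-1 (edgeR adjusted p = 7.69e-13 and 4.9e-11). In G3-1 overload Mmp8 rose by 0.77 (adjusted p = 0.000236). Mmp9 rose in G1-1 overload (0.44, adjusted p = 0.000227) but not in Printex90 (0.01, adjusted p = 0.961). No other tested gene of that list was called in these comparisons.

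Cx3cr1, the fractalkine receptor, was at the low end of detection: 0.0354 to 1.03 CPM, or 1 to 35 counts per library. Printex90 control libraries had 0.612, 0.719 and 0.765 CPM, non-overload libraries 0.298, 0.41 and 0.333 CPM, and overload libraries 0.106, 0.0591 and 0.0354 CPM, which were 4, 2 and 1 counts. The 3 conditions were separate, with overload lowest. G1-1 libraries had 0.935, 0.523 and 0.944 CPM in control, 0.59, 0.538 and 0.719 CPM in non-overload and 0.159, 0.296 and 0.0608 CPM in overload. Here the overload libraries were below all others while control and non-overload overlapped. In G3-1 and Bayertitan all 3 conditions overlapped, within 0.487 to 1.03 CPM and 0.351 to 0.884 CPM. From the summed counts, 7 in Printex90 overload against 67 in control, the ratio of overload to control was 0.101, with an exact (Clopper-Pearson) 95% interval of 0.0391 to 0.22. For G1-1, 17 against 83 counts gave 0.22, with an interval of 0.122 to 0.374. These intervals cover counting error only, not the spread between cultures. On the fitted scale the log2 fold changes were -3.26 (SE 0.46) for Printex90, -2.18 (SE 0.40) for G1-1, -0.47 (SE 0.34) for G3-1 and -0.42 (SE 0.36) for Bayertitan. Leaving out the second G1-1 overload library, which had the most Cx3cr1 of its group and Col3a1 above 10 CPM, gave -2.82. Without all 8 libraries with Col3a1 above 10 CPM, G1-1 again stood at -2.82. G3-1 then stood at -1.08, a value that rests on 1 control and 1 overload library, replicate 3 of each, with 32 and 21 counts.

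Csf1r, the CSF-1 receptor, had 13338 to 27479 counts per library. Printex90 libraries had 597, 576 and 689 CPM in control, 570, 546 and 615 CPM in non-overload and 454, 449 and 473 CPM in overload. In G1-1 they had 668, 548 and 583 CPM, then 623, 640 and 559 CPM, then 487, 437 and 495 CPM. Overload was below every control and non-overload library of its particle in both series, whereas control and non-overload overlapped. G3-1 and Bayertitan libraries overlapped in all conditions, at 499 to 641 CPM and 592 to 676 CPM. As log2 fold changes, overload differed from control by -0.44 (SE 0.09) in Printex90, -0.34 (SE 0.09) in G1-1, 0.03 (SE 0.09) in G3-1 and -0.03 (SE 0.09) in Bayertitan.

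Csf2ra, the ligand-binding chain of the GM-CSF receptor, had its highest group mean in G1-1 overload. In G1-1 it was at 291, 261 and 320 CPM in overload, 250, 254 and 216 CPM in non-overload and 227, 209 and 217 CPM in control. Its G1-1 overload libraries lay above all control and non-overload libraries of G1-1. Printex90 overload, at 259, 252 and 234 CPM, overlapped its control at 232, 220 and 252 CPM. G3-1 overload, at 217, 238 and 267 CPM, overlapped its control at 204, 183 and 240 CPM. The third G3-1 overload library was above the second of G1-1 overload. The log2 fold change of overload against control was 0.42 (SE 0.08) in G1-1, 0.08 (SE 0.08) in Printex90, 0.21 (SE 0.08) in G3-1 and 0.01 (SE 0.08) in Bayertitan. Between G1-1 and Printex90 these responses differed by 0.34 (SE 0.12), with G1-1 the higher. That difference was not tested, because it was in view when the genes were chosen.

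The ratio of 2 counts within a library does not depend on the scaling between libraries. Csf1r counts were 2.75 ± 0.174 times Csf2ra counts in G1-1 control (SD, n = 3), 2.53 ± 0.0503 in non-overload and 1.63 ± 0.0746 in overload. In Printex90 the same ratio was 2.64 ± 0.0827, 2.37 ± 0.12 and 1.85 ± 0.148. G3-1 went from 2.7 ± 0.0212 in control to 2.38 ± 0.0392 in overload, and Bayertitan from 2.75 ± 0.151 to 2.67 ± 0.257. The G1-1, Printex90 and G3-1 overload libraries lay below their controls in this ratio, while Bayertitan overlapped.

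Ccr1, a receptor of CCL3, CCL5 and related chemokines, varied least. Across the 36 libraries it ranged from 178 to 257 CPM, and all neighbours in the order of the 12 group means overlapped. In Printex90 overload its 201, 188 and 203 CPM lay just below the control libraries at 212, 205 and 243 CPM, with a log2 fold change of -0.16 (SE 0.08). G1-1, G3-1 and Bayertitan gave -0.08, 0.00 and -0.05 (SE 0.08 each). Cxcr1 counts were thus 0.741 ± 0.0329 times Ccr1 counts in G1-1 control and 1.5 ± 0.244 in G1-1 overload (SD, n = 3), and 0.789 ± 0.0276 and 1.45 ± 0.0587 in Printex90.

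Cmklr1, the chemerin receptor, had another order. G3-1 libraries had 11.6, 10.2 and 10.7 CPM in control, 12.2, 12 and 11.6 CPM in non-overload and 15.3, 15.6 and 14.7 CPM in overload, the overload libraries being above all others of that particle. With Bayertitan the values were 14.2, 13.5 and 13.9, then 12.7, 14.1 and 14.3, then 16.1, 15.7 and 13.7 CPM, and the conditions overlapped. G1-1 gave 12.3, 11.9 and 12.4, then 13.7, 14.1 and 14.5, then 14.3, 13.4 and 13.9 CPM, with both exposed groups above control and not apart from each other. Overload against control was 0.49 (SE 0.06) in G3-1, 0.19 (SE 0.06) in G1-1, 0.13 (SE 0.06) in Bayertitan and 0.12 (SE 0.06) in Printex90 on the log2 scale.

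**Figure D2:**
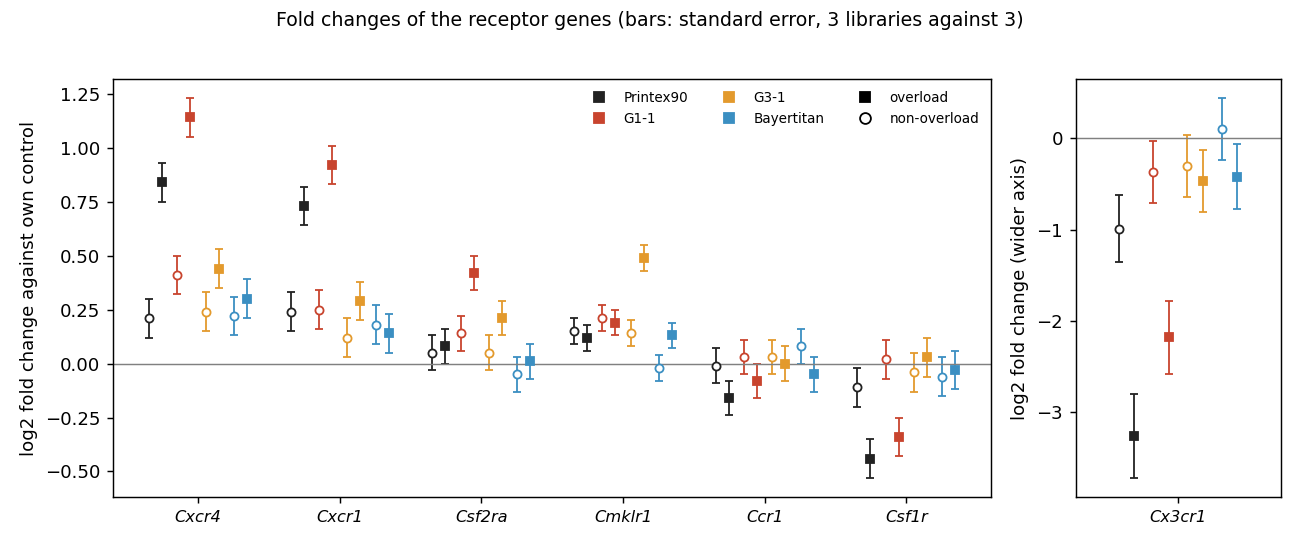
Log2 fold change of each receptor gene against the control of the same particle, for non-overload and overload, with bars of 1 SE from the edgeR fit over 36 libraries. Cxcr4 and Cxcr1 are above 0 in all 8 comparisons, Cx3cr1 reaches -3.26 in Printex90 overload, and Cmklr1 has its largest value, 0.49, in G3-1 overload.

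The receptors' libraries that did not overlap between overload and control are counted here only as a description, since the genes were chosen on this contrast. In Printex90, Cxcr1, Cxcr4 and Cmklr1 lay above control and Cx3cr1, Csf1r and Ccr1 below it, where 32% of all genes tested did not overlap, 17.2% higher and 14.9% lower. In G1-1, Csf2ra, Cxcr1, Cxcr4 and Cmklr1 lay above and Cx3cr1 and Csf1r below, where 37.5% did not overlap, 17.7% higher and 19.9% lower. For G3-1, Cxcr1, Cxcr4 and Cmklr1 lay above, where 11.6% did not overlap and 6.2% were higher. Bayertitan had Cxcr1 and Cxcr4 above, where 15.7% did not overlap and 7.91% were higher.

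Set in order of group means, the 12 levels of each gene overlapped between most neighbours. A break here means that neighbouring groups did not overlap, not that all groups below it were apart from all above. For Cxcr4 the first break fell between Printex90 control (75.3 CPM) and G3-1 non-overload (82.9 CPM). It did not part all controls from the rest, as Bayertitan control replicate 2 had 80.2 CPM and G3-1 non-overload replicate 3 had 80.0 CPM. The other break, from G3-1 overload (95.5 CPM) to Printex90 overload (134 CPM), set the Printex90 and G1-1 overload groups above all others. Cxcr1 broke below the same pair of overload groups, from 204 to 286 CPM. Cx3cr1 broke above them, from 0.172 to 0.347 CPM, as did Csf1r, from 473 to 548 CPM. Csf2ra broke between Printex90 overload at 248 CPM and G1-1 overload at 291 CPM, and Cmklr1 between G1-1 control at 12.2 CPM and Printex90 overload at 12.9 CPM. These breaks hold for the neighbours only. G3-1 overload replicate 3 had 267 CPM of Csf2ra, above G1-1 overload replicate 2 at 261 CPM. For Cmklr1, G1-1 control replicate 3 and Printex90 non-overload replicate 3 were both at 12.4 CPM. Over the 12 group means, Cxcr4 and Cxcr1 had a Pearson correlation of 0.977, Cx3cr1 and Cxcr1 of -0.934, and Cmklr1 and Cxcr4 of 0.417. These are descriptions over groups that share particles and culture series.

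Non-overload against control was the comparison in which the receptors could be tested, although it uses the same control libraries as the overload comparisons. Cxcr4 passed the test in G1-1 and in the mean over 4 particles, Cxcr1 and Cmklr1 passed in the mean, and Cx3cr1, Csf1r, Csf2ra and Ccr1 passed in none. In the quasi-likelihood test of edgeR, at a Benjamini-Hochberg adjusted p under 0.05 over 14606 genes, Cxcr4 rose in G1-1 non-overload by a log2 fold change of 0.41 (SE 0.09, adjusted p = 0.028). That call was lost when any 1 of the 6 libraries was left out (adjusted p = 0.0574 to 0.143) and when only the G1-1 libraries were fitted (adjusted p = 0.383). It was 1 of the 7 genes, where 0.459% of all genes tested were called. None of the 7 was called in Printex90, where 0.205% of all genes were, in G3-1, where 0% were, or in Bayertitan, where 0.335% were. DESeq2 called none of the 7 there either, and 4, 2 and 2 of them had an unadjusted p under 0.05. Over all genes in G3-1, edgeR called 0, DESeq2 called 14 and 802 had an unadjusted p under 0.05.

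Averaged over the 4 particles, the non-overload response was 0.27 for Cxcr4 (SE 0.04, adjusted p = 0.000295 by edgeR), and 12 of 12 non-overload libraries were above the mean of their own controls. Cxcr1 averaged 0.20 (SE 0.04, adjusted p = 0.0064), with 11 of 12 libraries above. Cmklr1 averaged 0.12 (SE 0.03, adjusted p = 0.0256), also with 11 of 12. Thus 3 of the 7 genes were called, all higher, against 4.94% of all genes called and 3.29% called higher. The Cxcr4 and Cxcr1 calls held with any 1 of the 24 libraries left out. The Cmklr1 call was lost without replicate 1 of Printex90 control (adjusted p = 0.0577), replicate 2 of G3-1 control (0.0519), replicate 1 of G3-1 non-overload (0.052) or replicate 3 of Bayertitan non-overload (0.0514). Cx3cr1 averaged -0.39 (SE 0.17), with an adjusted p of 0.226. Its widest gap was in Printex90, with a log2 fold change of -0.99 (SE 0.37, adjusted p = 0.556 by edgeR) and no overlap between the 2 groups. Csf1r, Csf2ra and Ccr1 averaged -0.05, 0.05 and 0.03 (SE 0.04 each), with adjusted p-values of 0.639, 0.576 and 0.75.

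The step from non-overload to overload shows where most of the difference lay. For Cxcr4 it was 0.73 in G1-1 and 0.62 in Printex90, but 0.20 in G3-1 and 0.08 in Bayertitan (SE 0.09 each, log2 scale). Cxcr1 had 0.67, 0.49, 0.16 and -0.04 in the same order (SE 0.09 each). For Cmklr1 the step was 0.35 in G3-1 (SE 0.06), and -0.02 in G1-1 and -0.03 in Printex90, whose non-overload libraries already had the overload level. Csf1r stepped by -0.36 in G1-1 and -0.33 in Printex90 (SE 0.09 each).

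Particles also differed from one another in these overload responses, as a description. The Cxcr4 response was 0.84 higher in G1-1 than in Bayertitan and 0.70 higher than in G3-1 (SE 0.13 each), and the Cxcr1 response 0.78 and 0.63 higher (SE 0.12 each). Between Printex90 and G1-1 the Cxcr4 responses differed by -0.30 (SE 0.13) and the Cxcr1 responses by -0.19 (SE 0.12). The G3-1 response of Cmklr1 exceeded that of Printex90 by 0.36 and that of Bayertitan by 0.36 (SE 0.09 each). Cx3cr1 responses were 2.79 lower in Printex90 than in G3-1 on the log2 scale (difference -2.79, SE 0.59), and 1.71 lower in G1-1 (difference -1.71, SE 0.53).

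The 4 control groups, which had no particles, gave no receptor called by edgeR's test for any difference among them, where 0.0342% of all genes were called. Cmklr1 came closest, with 10.8 CPM in G3-1 control, 11.8 CPM in Printex90 control, 12.2 CPM in G1-1 control and 13.9 CPM in Bayertitan control (adjusted p = 0.104, unadjusted p = 7.83e-05). DESeq2 called it (adjusted p = 0.0177), as did edgeR without replicate 3 of G3-1 control (adjusted p = 0.0479). Cmklr1 was the only gene of the 7 with an unadjusted p under 0.05 here. The overload levels of Cmklr1 in G3-1 (15.2 CPM) and Bayertitan (15.1 CPM) were close, so that its larger G3-1 fold change went with the lower G3-1 control.

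On the list of ligands, 17 of 19 genes were tested. The list is wider than the 7 receptors described, as it holds Ccl2, whose receptor gene Ccr2 is not analysed here. Which receptor each ligand acts through was not tested. In Printex90 overload, where 14.8% of all genes were called, 7.45% higher and 7.31% lower, 8 ligand genes fell and none rose: Ccl2, Ccl6, Ccl7, Ccl12, Cxcl1, Cxcl2, Cxcl3 and Cxcl6, most of them inflammatory chemokines that attract monocytes or neutrophils. Leaving out 1 of the 6 libraries at a time kept the calls of Ccl2, Ccl7, Cxcl2 and Cxcl3. The calls of Cxcl6 and Ccl6 were lost without replicate 1 of either group (adjusted p = 0.0552 to 0.0747 and 0.096 to 0.1). Cxcl1 lost its call in 5 omissions (adjusted p = 0.0631 to 0.164, all but control 3) and Ccl12 in 4 (0.121 to 0.269, controls 1 and 2 and overload 1 and 3). Ccl6 and Ccl12, whose libraries overlapped between overload and control, also lost their calls with only the Printex90 libraries fitted and without the libraries high in Col3a1 (adjusted p = 0.0571 to 0.0774 and 0.109 to 0.131). Over the 17 ligands the median log2 fold change was -0.62, against -0.015 over all genes tested. Cxcl2 was at 16.0, 17.7 and 16.6 CPM in Printex90 control and 9.66, 11.4 and 10.6 CPM in overload, without overlap (log2 fold change -0.67, SE 0.12, edgeR adjusted p = 0.000255). Ccl2 went from 131 ± 2.16 to 94.9 ± 8.65 CPM (SD, n = 3; -0.46, SE 0.10, edgeR adjusted p = 0.0015). In G1-1 overload, where 28.1% of all genes were called, 13.7% higher and 14.4% lower, 4 rose and none fell: Csf1, Mif, Cxcl2 and Cxcl6, with a median of 0.25 over the 17 against -0.019. Csf1, the ligand of the Csf1r receptor, rose from 252 ± 18 to 303 ± 16.5 CPM (0.26, SE 0.07, edgeR adjusted p = 0.00541), a call lost without replicate 2 of G1-1 control (adjusted p = 0.0612). Cxcl2 rose by 0.33 and Cxcl6 by 0.68 (adjusted p = 0.0293 and 0.0284), calls that were lost in 5 and 4 of 6 omissions of 1 library (adjusted p = 0.0502 to 0.115, all but overload 1, and 0.0592 to 0.188, controls 1 and 2 and overload 1 and 2). Mif rose by 0.50 (SE 0.15, edgeR adjusted p = 0.0151), and lost its call without replicate 1 of G1-1 control or replicate 3 of G1-1 overload (adjusted p = 0.0941 and 0.075). Cxcl12, the classical ligand of CXCR4, did not pass in any of the 4 overload comparisons and stood at 2.05 to 3.08 CPM in the control and overload group means of Printex90 and G1-1. Ccl9, a ligand of Ccr1 in mice, had log2 fold changes of 0.10 in Printex90 and 0.08 in G1-1 overload (adjusted p = 0.561 and 0.597). In the mean non-overload response edgeR called 3 of the 17 ligands, where 4.94% of all genes were called. DESeq2 also called 3 there: Mif, Ccl2 and Ccl9. Cxcl2 fell in Printex90 non-overload (-0.6, SE 0.12, edgeR adjusted p = 0.0191), a call lost with a replicate block within each particle.

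The Cxcl2 responses to Printex90 and G1-1 differed by -1.0 (edgeR adjusted p = 9.8e-05), and those of Ccl2 by -0.62 (adjusted p = 0.00222), where 11.1% of all genes differed between these 2 responses. In G3-1 and Bayertitan overload, edgeR and DESeq2 each called 0 of the 17 ligands, with 2 at an unadjusted p under 0.05 for either particle, where 0.568% and 0.329% of all genes were called. Rarres2, which encodes chemerin, was below the filter. Csf2, which encodes GM-CSF, was itself near the floor, at 0.24 ± 0.0518 CPM in Printex90 control.

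Of the other chemokine receptors reported here, 7 of 17 were tested. In Printex90 overload, with 14.8% of all genes called, and in G1-1 overload, with 28.1%, 1 of the 7 rose and none fell, which is no larger a share than over all genes. Median log2 fold changes were -0.17 and 0.03. Ccrl2, an atypical receptor that binds chemerin and presents it to the Cmklr1 receptor, rose in G1-1 from 9.81 ± 0.935 to 13.7 ± 2.52 CPM (SD, n = 3; 0.48, SE 0.12, edgeR adjusted p = 0.00228). In Printex90 it rose by 0.35 (SE 0.12, adjusted p = 0.0434), a call lost in 5 of 6 omissions of 1 library (adjusted p = 0.0662 to 0.203), the exception being replicate 3 of the control. Ackr3, a scavenging receptor of CXCL12, stood at -0.53 and -0.66 in Printex90 and G1-1 (adjusted p = 0.566 and 0.37), and Cxcr5, the receptor of CXCL13, at 0.44 and 0.60 (adjusted p = 0.214 and 0.0562). For G3-1 and Bayertitan both tools called 0 of the 7, with 2 and 0 at an unadjusted p under 0.05.

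Among receptors of other attractants, for complement, platelet-activating factor, nucleotides and lipids, more genes fell than rose. Of 10 tested, 4 fell and 0 rose in Printex90 overload, where 7.31% of all genes were called lower, and 5 fell and 1 rose in G1-1 overload, where 14.4% were called lower and 13.7% higher. Median log2 fold changes were -0.26 and -0.22. Ptafr, the platelet-activating factor receptor, had 183, 177 and 183 CPM in Printex90 control and 145, 147 and 148 CPM in overload (-0.31, SE 0.05, edgeR adjusted p = 0.000203), and fell in G1-1 too (-0.22, SE 0.05, adjusted p = 0.00257). C3ar1, the receptor of complement C3a, went from 36.3, 27.7 and 27.9 CPM to 20.1, 17.5 and 17.3 CPM in G1-1 (-0.74, SE 0.15, adjusted p = 0.000381). P2ry6, a receptor of UDP, fell by 0.58 on the log2 scale in G1-1 (SE 0.10, adjusted p = 4.19e-05). Its Printex90 call (-0.31, adjusted p = 0.0322) was lost in 5 of 6 omissions of 1 library, all but overload 3, and without the libraries high in Col3a1 (adjusted p = 0.0729 to 0.132). P2ry12, an ADP receptor, fell in G1-1 from 5.81 ± 0.49 to 3.98 ± 0.395 CPM (SD, n = 3; -0.54, SE 0.13, edgeR adjusted p = 0.00229), and Cysltr1, a receptor of cysteinyl leukotrienes, fell by 0.57 (adjusted p = 0.0106), a call lost without replicate 2 of overload (adjusted p = 0.0872). C5ar1, the main C5a receptor, fell in Printex90 from 269 ± 6.88 to 230.0 ± 5.22 CPM (SD, n = 3; -0.22, SE 0.06, edgeR adjusted p = 0.0133), a call lost without control 1, overload 1 or overload 2 (adjusted p = 0.0582 to 0.0608). C5ar2, a second C5a receptor, fell by 0.30 in Printex90 (SE 0.08, adjusted p = 0.0082). Gpr183, an oxysterol receptor, rose in G1-1 (0.26, adjusted p = 0.0223), and lost its call without replicate 2 of the control or replicate 3 of overload (adjusted p = 0.121 to 0.203). Neither tool called any of the 10 in G3-1 or Bayertitan, with 1 and 0 at an unadjusted p under 0.05.

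**Figure D3:**
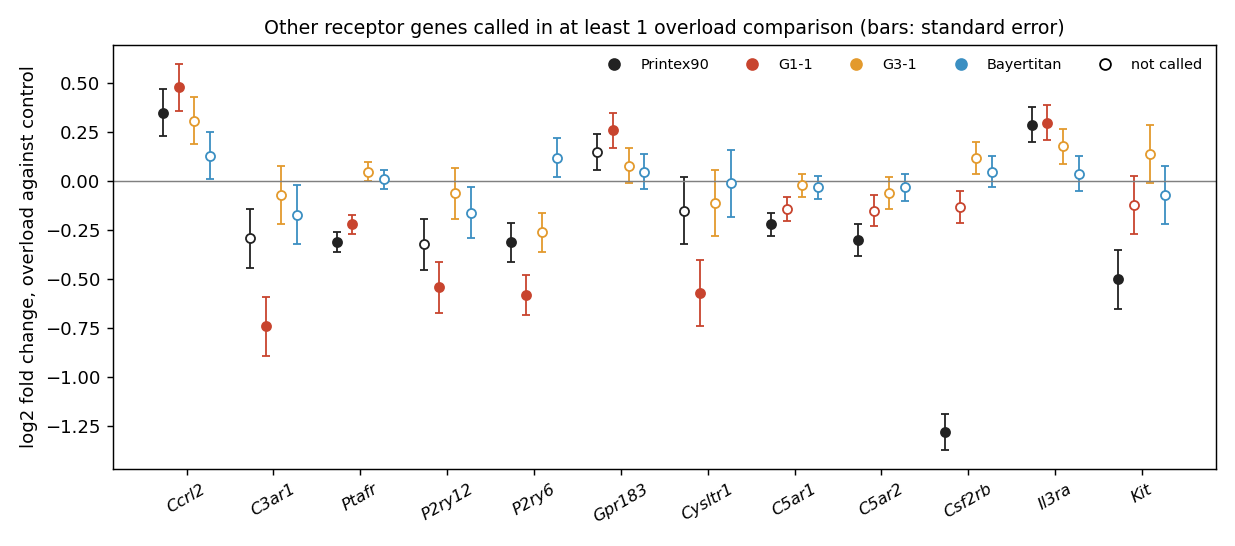
Log2 fold change of overload against control for the receptor genes outside the 8 that were called for at least 1 particle, from the edgeR fit, with bars of 1 SE and filled points where the adjusted p was under 0.05. All filled points are those of Printex90 and G1-1; Csf2rb reaches -1.28 in Printex90 and Ccrl2 is above 0 in both.

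Csf2rb, the beta chain shared by the GM-CSF, IL-3 and IL-5 receptors, separated Printex90 from the titanium dioxides. Printex90 libraries had 89.4, 91.8 and 75.3 CPM in control, 61.6, 64.8 and 57.1 CPM in non-overload and 32.1, 40.8 and 32.9 CPM in overload, with no overlap between the 3 conditions. G1-1 libraries had 81.9, 84.1 and 89.2 CPM in control and 80.4, 79.3 and 73.6 CPM in overload. Overload against control gave -1.28 in Printex90 (SE 0.09, edgeR adjusted p = 1.23e-11), -0.13 in G1-1 (adjusted p = 0.264), 0.12 in G3-1 (adjusted p = 0.573) and 0.05 in Bayertitan (adjusted p = 0.988). The Printex90 response differed from that to G1-1 by -1.15 (adjusted p = 5.86e-08), to G3-1 by -1.39 (adjusted p = 6.04e-09) and to Bayertitan by -1.33 (adjusted p = 1.37e-08). Of all genes, 0.644% differed between the Printex90 and G3-1 responses and 1.18% between those to Printex90 and Bayertitan. The Printex90 overload call held with any 1 library left out and in the other settings tried.

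In Printex90 non-overload Csf2rb also fell (-0.48, SE 0.08, edgeR adjusted p = 0.00471), a call lost without replicate 1 or 2 of the control or replicate 3 of non-overload (adjusted p = 0.0574 to 0.074) and with only the Printex90 libraries fitted (0.181 to 0.323 over that setting and the one without libraries high in Col3a1). Csf2rb counts were 0.367 ± 0.0613 times Csf2ra counts in Printex90 control, 0.253 ± 0.0274 in non-overload and 0.142 ± 0.0189 in overload (SD, n = 3). For G1-1 the ratio was 0.391 ± 0.0267 in control and 0.27 ± 0.0377 in overload. G3-1 and Bayertitan stayed between 0.378 ± 0.00655 and 0.414 ± 0.0496 in all conditions.

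**Figure D4:**
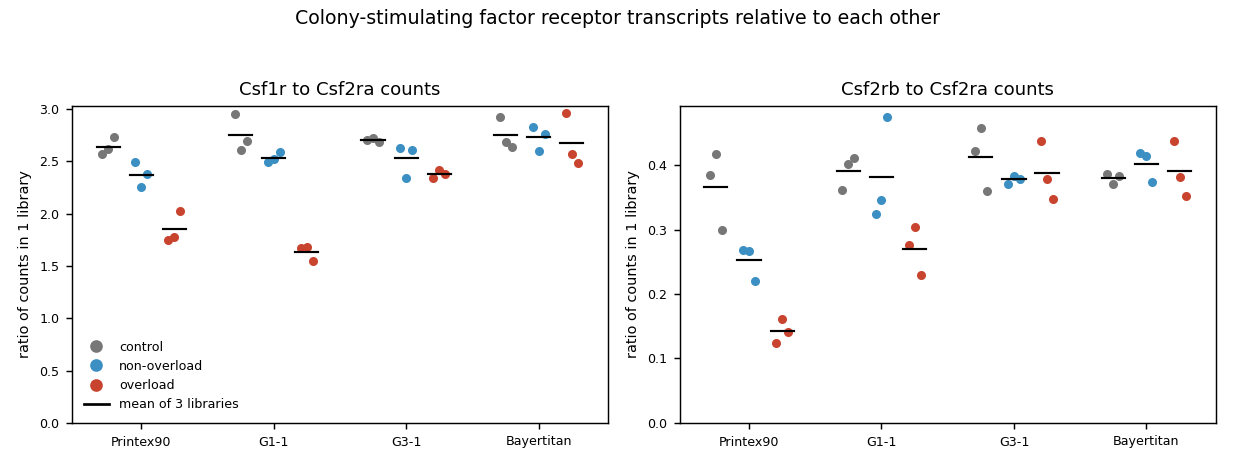
Ratio of Csf1r to Csf2ra counts and of Csf2rb to Csf2ra counts within each of the 36 libraries, by particle and condition, with points for libraries and a bar for each group mean. The first ratio is lowest in G1-1 overload (mean 1.63) and the second in Printex90 overload (mean 0.142).

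Of this and the other chains, 4 of 6 were tested: 1 rose and 2 fell in Printex90 overload, where 14.8% of all genes were called, and 1 rose in G1-1 overload, where 28.1% were. Il3ra, the IL-3 receptor alpha chain, rose in Printex90 overload (0.29, SE 0.09, edgeR adjusted p = 0.0292) and G1-1 overload (0.30, SE 0.09, adjusted p = 0.014). Its calls were lost in 4 of 6 omissions of 1 library in Printex90 (adjusted p = 0.0779 to 0.15; controls 1 and 2, overload 1 and 3) and in 2 of 6 in G1-1 (0.051 to 0.111; control 3, overload 3). Kit, the stem cell factor receptor, fell in Printex90 (-0.50, SE 0.15, adjusted p = 0.0242), from 4.32 ± 0.321 to 3.07 ± 0.496 CPM, a call lost without any 1 control or without overload 1 (adjusted p = 0.0547 to 0.186). Csf3r, the G-CSF receptor, had an adjusted p of 0.172 in Printex90 and 0.952 in G1-1. In G3-1 and Bayertitan both tools called 0 of the 4, with 1 and 0 at an unadjusted p under 0.05.

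Downstream of the CSF-1 and GM-CSF receptors, 20 of 20 genes were tested, of which 1 rose and 4 fell in Printex90 overload, where 14.8% of all genes were called, 7.45% higher and 7.31% lower. In G1-1 overload 2 rose and 2 fell, a smaller share than the 28.1% of all genes called there. Ptpn6, the phosphatase SHP-1 that damps receptor signals, fell in G1-1 from 221, 205 and 220 CPM to 158, 147 and 156 CPM (-0.49, SE 0.07, edgeR adjusted p = 7.44e-06). Its response was lower in G1-1 than in G3-1 (difference -0.47, adjusted p = 0.00283) and than in Bayertitan (difference -0.36, adjusted p = 0.0182), where 9.28% and 12.3% of all genes differed. Pik3r1, a regulatory subunit of PI3 kinase, fell in G1-1 (-0.34, SE 0.06, adjusted p = 7.77e-05). Stat5b, a factor activated by GM-CSF, rose in G1-1 (0.29, SE 0.07, adjusted p = 0.0011), and Stat3 rose by 0.19 (SE 0.04, adjusted p = 0.000162). Jak2, the kinase bound to the GM-CSF receptor, stood at -0.16 (adjusted p = 0.0515), and at -0.15 in Printex90 (adjusted p = 0.108). In Printex90 the called genes were Stat5b (0.24, adjusted p = 0.0118), and, lower, Ptpn6, Src, Socs2 and Cish, of which the last 2 are targets of STAT5. Socs2 stood at -0.71 (SE 0.18, adjusted p = 0.00896) and Cish at -0.47 (SE 0.14, adjusted p = 0.0237). All 5 Printex90 calls were lost without control 1, control 2 or overload 1, and those of Ptpn6, Src and Cish also without other libraries, with adjusted p-values of 0.0577 to 0.183.

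Transcription factors of macrophage development had 17 of 17 tested, with 3 up and 1 down in Printex90 overload, where 7.45% of all genes were called higher and 7.31% lower, 6 up and 1 down in G1-1, where 13.7% and 14.4% were, and 2 up in G3-1, where 0.52% were called higher. In G1-1 the calls of Egr2, Klf2 and Maf were lost in 3, 2 and 1 of 6 omissions of 1 library (adjusted p = 0.0576 to 0.204, 0.06 to 0.0898 and 0.0616). Bhlhe40 and Bhlhe41, factors that sustain alveolar macrophage identity in mice, rose in Printex90 (0.29 and 0.32) and G1-1 (0.36 and 0.48; SE 0.06 and 0.07, edgeR adjusted p = 1.47e-05 and 7.77e-06). Runx1, a myeloid factor, fell in Printex90 from 42.1, 44.9 and 39.2 CPM to 25.0, 28.2 and 27.3 CPM (-0.65, SE 0.07, adjusted p = 2.31e-07), and its response there was 0.59 lower than in G1-1 (difference -0.59, adjusted p = 0.000143). Maf rose in Printex90 (0.40, SE 0.07, adjusted p = 0.000178). In G3-1, Bhlhe40 (0.26, adjusted p = 0.0288) and Maf (0.30, adjusted p = 0.0384) were called, each call being lost without control 1, control 2 or overload 3, without overload 1 for Bhlhe40 and without overload 2 for Maf (adjusted p = 0.0594 to 0.151 and 0.0716 to 0.254). Neither call held with only the G3-1 libraries fitted or without the libraries high in Col3a1 (adjusted p = 0.245 to 0.369 and 0.345 to 0.551). In the mean non-overload response Bhlhe40 rose by 0.19 (SE 0.03, adjusted p = 8.96e-05).

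Of the G protein and motility genes, 21 were tested. In Printex90 overload 2 rose and 1 fell, about the share of all genes called (14.8%), and in G1-1 overload 7 rose and 1 fell, where 13.7% of all genes were called higher and 14.4% lower. Gna13, a G protein alpha subunit that signals to RhoA, rose in G1-1 from 394, 377 and 407 CPM to 502, 487 and 599 CPM (0.43, SE 0.06, edgeR adjusted p = 4.61e-06). Pak1, a kinase acting below Rac and Cdc42, fell there (-0.36, SE 0.06, adjusted p = 2.58e-05). Plcb2, a phospholipase C activated by chemoattractant receptors, rose in Printex90 (0.33, SE 0.07, adjusted p = 0.00328). The other calls in Printex90 were those of Rhoa, a GTPase of the cytoskeleton (0.14), and Plcb3, another phospholipase C (-0.19), each lost in 4 of 6 omissions of 1 library (adjusted p = 0.0513 to 0.13 and 0.0695 to 0.118), and that of Plcb3 also with only the Printex90 libraries fitted (0.092). Of the G1-1 calls, those of Plcb2 and Gnb1 were lost in 4 of 6 omissions (adjusted p = 0.0549 to 0.261 and 0.0563 to 0.213) and those of Rhoa and Rac2 in 2 of 6 (0.0541 to 0.0694 and 0.12 to 0.131). Among 16 genes of receptor desensitisation, Arrb2, an arrestin, fell in Printex90 (-0.26, SE 0.06, adjusted p = 0.00357) and G1-1 (-0.23, SE 0.06, adjusted p = 0.00355), and Rgs2 fell in G1-1 (-0.47, SE 0.08, adjusted p = 2.71e-05). In all, 1 rose and 2 fell in Printex90, and 1 rose and 3 fell in G1-1, against 14.8% and 28.1% of all genes called. The Printex90 calls of Rgs1, a regulator that shortens G protein signals (0.26, SE 0.08, adjusted p = 0.0309), and Grk6, a receptor kinase (-0.15, SE 0.04, adjusted p = 0.00875), were lost in 3 and 2 of 6 omissions of 1 library (adjusted p = 0.0986 to 0.192 and 0.0566 to 0.0843). In G1-1, Rgs18 (-0.48, adjusted p = 0.0233) lost its call in 4 of 6 omissions (0.0539 to 0.105). Rgs3, the one that rose (0.23, adjusted p = 0.0394), lost its call in 5 of 6 omissions (0.0624 to 0.167), and with the replicate number as a block within each particle or without the libraries high in Col3a1 (0.0503 to 0.0527). For G3-1 and Bayertitan, edgeR called 0 of the 21 and 0 of the 16. DESeq2 called Gna13 in G3-1 and no other gene of these lists for either particle. An unadjusted p under 0.05 was found for 4 and 1 of the 21 and for 0 and 3 of the 16.

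Summed markers of interstitial macrophages, and those of T and NK cells, were lower in Printex90 and G1-1 overload than in control, without overlap. The epithelial and monocyte sums overlapped between control and overload for both particles. The summed level of the 11 epithelial markers was 1590 to 2140 CPM in G1-1 control and 1190 to 1760 CPM in G1-1 overload, and 1110 to 2070 CPM and 1110 to 1370 CPM in Printex90. The 8 markers of interstitial macrophages, which are higher in Cx3cr1 than alveolar macrophages in mice, summed to 323 to 358 CPM in G1-1 control and 261 to 297 CPM in G1-1 overload, and to 336 to 374 CPM and 251 to 276 CPM in Printex90. The monocyte list of 10 genes with a row, without the receptors, stayed within 704 to 818 CPM in these G1-1 groups and 697 to 828 CPM in these Printex90 groups. Of these 10 genes, Plac8 and Ly6c were the only 2 that stayed under 1 CPM in every library, at most 0.563 CPM. The T and NK cell markers summed to 105 to 128 CPM in G1-1 control and 69.4 to 90.3 CPM in G1-1 overload. In Printex90 they summed to 107 to 142 CPM and 83.8 to 101 CPM. Cd4, which made up most of that sum, fell in G1-1 (-0.56, edgeR adjusted p = 0.000333) and Printex90 (-0.40, adjusted p = 0.016). The part of these cells in the receptor levels was not tested.

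The genes whose 12 group means were most like those of each receptor were read from 11194 or 11195 genes with a symbol and a mean of at least 1 CPM. For Cxcr4 they were Ctsd, which encodes the lysosomal protease cathepsin D, Sh2d3c and Nav1 (Pearson r = 0.991, 0.991 and 0.985 over 12 groups). For Cxcr1 they were Mfsd11, Gnpda1 and Mgll (0.991, 0.989 and 0.988). Cx3cr1 was most like Cd74, the invariant chain of MHC class II, Axl and Gvin1 (0.976, 0.969 and 0.968). Cd74 was at 342, 341 and 281 CPM in Printex90 control and at 95.4, 108 and 111 CPM in Printex90 overload. Csf1r was most like F11r, Ptafr and Nlrc4 (0.966, 0.963 and 0.955), Csf2ra like Pacs2, Ppt2 and Coro7 (0.976, 0.97 and 0.966), and Ccr1 like Sting1, Dennd1b and Gpr155 (0.917, 0.907 and 0.896). Cmklr1 had the weakest matches, Acod1, Map6 and Il1rl2 (0.881, 0.863 and 0.844).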

How the data were processed

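RNA from 36 cultures of rat alveolar macrophages was sequenced after ribosomal RNA depletion (KAPA RNA HyperPrep with RiboErase, per the labels). Expected counts for 23487 genes were deposited by the authors in 1 table, and 30.5% of them were not whole. The submitters' processing notes name Salmon, FastQC, MultiQC and the build Rnor_6.0 without versions. Columns were matched to samples by their names, and all 36 were used.

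The expected counts were rounded and fitted with edgeR 4.0.16 (R 4.3.3): TMM scaling, filterByExpr (at least 10 counts, total at least 15), 1 coefficient for each of 12 groups (24 residual degrees of freedom), quasi-likelihood F tests and Benjamini-Hochberg adjustment over 14606 genes, with calls at 0.05. CPM values use the same scaling. The method was tried on simulated data for G1-1 overload against control only, which says nothing on the other comparisons. Totals were 26.1 to 43.2 M counts, so Cx3cr1, with 1 to 35 counts, is the one receptor limited by counting error. Replicates differed by a chi-square of 3.82 to 37.2 per degree of freedom, so none was counted as a repeat of another.

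The receptors and all gene lists were chosen with earlier results of these data known. Of each list, the rule named the 4 genes with the smallest p in the mean of the 4 overload responses and the called genes where 5 or fewer of a list were called in a comparison against control. Others are named beside a count or after their values were seen (Ccl6, Ccl7, Ccl12, Cxcl1, Cxcl3, Cxcl12, Rarres2, Cd74, Cysltr1, Egr2, Klf2, Gnb1 and Rac2). Group pairs of the same particle share replicate numbers, and deviations of same-numbered libraries correlated at -0.525 to 0.78. Every correlation was over 0.1 in 3 of 12 pairs of groups (Printex90 control with non-overload, G1-1 control with overload, and G3-1 control with overload). In each of these 3, however, a control library correlated more with another number. This was replicate 1 in Printex90 (0.461 against 0.234) and G1-1 (0.374 against 0.331), and replicate 2 in G3-1 (0.627 against 0.155). The numbers thus do not settle whether libraries were paired, and the main fit used no pairing. DESeq2 1.42.0 and the other alternatives are described in the closing section. The lists leave out 2 genes that are not reported here. Promoter sequences are from RefSeq (GRCr8) and were matched by symbol for 8 of the 8 receptors.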

Additional observations from a re-analysis of the deposited data

Results flagged for a closer look

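Several genes beside the receptors responded to overload by different amounts with different particles, by edgeR's test of the difference itself, adjusted over all genes tested. Values are differences of log2 fold changes, the first particle minus the second, with the adjusted p in brackets. Comparing Printex90 with G1-1, the differences were Csf2rb -1.15 (5.86e-08), Runx1 -0.59 (0.000143), Cxcl2 -1.0 (9.8e-05), Cxcl6 -1.68 (0.00108), Rgs2 0.42 (0.0102), Ccl2 -0.62 (0.00222), Grk6 -0.17 (0.0482), Pik3r1 0.3 (0.0207), Stat3 -0.16 (0.0477), Rgs3 -0.39 (0.0256), Cish -0.66 (0.0268) and Gna13 -0.28 (0.0383). Against G3-1, Printex90 differed for Csf2rb -1.39 (6.04e-09), Runx1 -0.68 (0.000105), Cxcl2 -1.0 (0.000527) and Ptafr -0.36 (0.0124). Against Bayertitan, Printex90 differed for Csf2rb -1.33 (1.37e-08), Runx1 -0.57 (0.00139), Cxcl2 -0.92 (0.0016) and Ptafr -0.32 (0.0255). G1-1 minus G3-1 gave Rgs2 -0.47 (0.00473), C3ar1 -0.68 (0.0407), Ptafr -0.26 (0.0232), Ptpn6 -0.47 (0.00283), Pik3r1 -0.41 (0.00173), Arrb2 -0.3 (0.0198), Pak1 -0.29 (0.0237) and Bhlhe41 0.32 (0.0476). For G1-1 minus Bayertitan the values were Rgs2 -0.46 (0.00448), Rgs18 -0.83 (0.0119), Ptafr -0.23 (0.0459), Ptpn6 -0.36 (0.0182), P2ry6 -0.7 (0.000787), Pak1 -0.37 (0.00242) and Bhlhe41 0.4 (0.00808). The overload responses of Csf2rb, the beta chain of the GM-CSF receptor, and of Runx1 were lower in Printex90 than in all 3 titanium dioxides. That of Ptafr, the platelet-activating factor receptor, was lower in both Printex90 and G1-1 than in G3-1 and Bayertitan. Differences among the receptors themselves are given as descriptions in the main text, and their causes were not tested.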

How the results depend on the processing

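Most fold changes of the receptors moved little. Leaving aside omissions of 1 library, 233 tested receptor values kept their direction and call, 4 changed sign and 1 lost its call. Of the described values, 382 moved by less than the SE of their fold change in the main fit and 10 by that much or more. Counts over all genes were less stable. With DESeq2, overload calls were 208 in G3-1 and 126 in Bayertitan (edgeR 83 and 48), non-overload calls were 58, 180, 14 and 181 in Printex90, G1-1, G3-1 and Bayertitan (edgeR 30, 67, 0 and 49), 184 genes differed between the Printex90 and G3-1 responses (edgeR 94), 7 between G3-1 and Bayertitan (edgeR 0) and 66 among controls (edgeR 5). Without a filter on low counts, Bayertitan non-overload had 23 calls. With a replicate block within each particle, Bayertitan had 75 overload and 98 non-overload calls and G3-1 had 1 non-overload call. A replicate block across particles gave 29 non-overload calls in Bayertitan and 13 among controls. No call of the 7 receptors changed under a block; of the other lists' calls, the block within particles ended those of Rgs3 in G1-1 overload and Cxcl2 in Printex90 non-overload.

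With only the libraries of the particles compared, overload calls were 1373 in Printex90 (2155 with all libraries) and 1 in G3-1, non-overload calls were 5, 0 and 1 in Printex90, G1-1 and G3-1, 59 genes differed between Printex90 and G3-1 responses and 0 among controls. Without the 8 libraries with Col3a1 above 10 CPM, overload calls were 0 in G3-1 and 86 in Bayertitan, non-overload calls 11 in Printex90 and 90 in Bayertitan, differences 48 (Printex90 and G3-1), 787 (G1-1 and G3-1, 1355 with all libraries) and 0 among controls. In that setting 4 small non-overload values changed sign: in G3-1, Csf2ra -0.14, Ccr1 -0.08 and Cxcr1 -0.01, and in Bayertitan Cmklr1 0.03. The causes were not tested.

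Leaving out 1 library at a time gave overload calls of 997 to 2861 in Printex90, 2931 to 4142 in G1-1, 26 to 233 in G3-1 and 3 to 19 in Bayertitan. Non-overload calls ranged over 9 to 27, 3 to 36, 0 to 0 and 1 to 21 in the same order, mean non-overload calls over 455 to 858, and control calls over 0 to 132. Differences from Printex90 ranged over 1217 to 1751 (G1-1), 71 to 134 (G3-1) and 93 to 317 (Bayertitan), those between G1-1 and G3-1 over 1031 to 1418, G1-1 and Bayertitan over 1266 to 1870, and G3-1 and Bayertitan over 0 to 1. Non-overload values near 0 changed sign in some omissions: Csf1r in G1-1 (-0.05 to 0.11) and G3-1 (-0.12 to 0.07), Ccr1 in G1-1 (-0.01 to 0.09), Printex90 (-0.06 to 0.07) and G3-1 (-0.02 to 0.10), Csf2ra in G3-1 (-0.03 to 0.17), and in Bayertitan Cx3cr1 (-0.03 to 0.30) and Cmklr1 (-0.05 to 0.03). For the called genes of other lists, 498 values kept their call and 46 lost it, and in omissions of 1 library 443 kept it and 193 lost it. Depth limits Cx3cr1 alone among the receptors. The Cmklr1 difference among controls had adjusted p-values of 0.0177 to 0.593 over its settings.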
